A study of Mus musculus with 32 samples.

Results

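The lysosomal hydrolases other than cathepsins were followed in microglia from rTg4510 mice, a tau transgenic model, and from wild type (WT) littermates. The 33 genes were listed by name, and all 33 were found by their Entrez numbers among the 18588 genes of the deposited table. They comprised 13 sugar hydrolases, 5 sulfatases, 6 lipid and thioester hydrolases, 3 peptidases, 3 phosphatase and nuclease genes, and 3 genes for activators or precursors of lysosomal proteins. In rTg4510, human tau P301L is placed under a tetracycline-responsive element and is switched on by a tTA driven by the CaMKIIα promoter, so that it is made in forebrain neurons and not in microglia. WT animals carried no transgene, and the animals of both genotypes were female mice of a 129 and FVB background, taken at 2, 4, 6 or 8 months of age, with no other treatment. Microglia were captured with CD11b MicroBeads, and each library came from the pooled forebrains of several animals, so that a library is a pool and not a mouse. Of 32 libraries (4 for each genotype and age), 28 were used: each group held 4 of them at the ages of 2 and 6 months and 3 at 4 and 8 months. Replicate 3 of both genotypes at 4 months and replicate 4 of both at 8 months had been excluded by the authors for failed quality control.

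A lysosome breaks down what a microglial cell takes up or recycles, and each hydrolase removes a particular bond from sugars, lipids, proteins or nucleic acids at acid pH. Most of these enzymes are marked with mannose 6-phosphate in the Golgi apparatus and carried to the lysosome by receptors, and inherited loss of many of them causes a storage disease of the brain. Glycolipids are degraded stepwise by enzymes that need small activator proteins, the saposins and the GM2 activator. Progranulin, cut into granulins in the lysosome, is needed for normal lysosomal function in microglia.

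Values are log2 gene signals as deposited. The authors rolled exon reads up into 1 signal per gene, and the library medians were 5.63 throughout. No read totals accompany the signals, so the depth behind a value is unknown, and signals are compared between libraries and not between genes. Differences between genotypes are log2 fold changes of rTg4510 against WT, estimated by a linear model (limma) of 8 group means. Each has a standard error (SE) and an FDR, the p-value adjusted by the Benjamini-Hochberg method over all 18588 genes. A gene passed the test at an FDR under 0.05, and a differentially expressed gene (DEG) had in addition a change above 1.5 fold. As RNA of whole cell pools was measured, fewer cells of a type and less RNA per cell cannot be told apart.

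Marker genes of several cell types were also read. The microglial markers Cx3cr1, P2ry12, Tmem119 and Csf1r lay between 10.06 and 14.05 in all 28 libraries. Itgam lay between 8.94 and 9.88, and Aif1 between 5.85 and 6.60. Markers of other cells, such as Mrc1 (mean 9.44) and Aqp4 (mean 7.67), also lay above the library medians on average. A signal above the median therefore does not show how pure the libraries were. The 5 neutrophil markers were lower in rTg4510 at 6 and 8 months (5 of 5 passed at each age), and their summed log2 signal at 6 months was 8.80 to 10.21 in WT and 7.18 to 7.91 in rTg4510. Of 6 microglial markers, 3 were lower in rTg4510 at 2 and at 4 months and 4 at 6 and at 8 months, while Aif1 was higher at 6 months (0.36, FDR = 0.00808) and 8 months (0.40, FDR = 0.0132). The summed level of the 6 markers did not overlap between genotypes from 4 months on. At 4 months it was 14.44 to 14.69 in WT and 14.05 to 14.21 in rTg4510. At 6 months it was 14.60 to 14.78 in WT and 14.10 to 14.32 in rTg4510, and at 8 months 14.32 to 14.57 and 13.90 to 14.03. Replicate 1 of each genotype at 8 months had the highest astrocyte sum (11.09 in WT, 9.24 in rTg4510) and the highest oligodendrocyte sum (10.32 and 9.28) of its group. At 6 months the astrocyte sums (8.38 to 8.53 in WT, 7.35 to 8.24 in rTg4510) and the oligodendrocyte sums (7.18 to 7.58 and 6.43 to 7.08) did not overlap. Within the astrocyte list Gfap was higher in rTg4510 (1.52 and 1.80 at 6 and 8 months), Aqp4 was lower (-1.22 and -1.38), and Slc1a2 was lower at 8 months (-2.14). Of 5 neuronal markers, 2 were found, with sums of 3.20 to 5.12 in rTg4510 from 6 months on and 4.39 to 6.52 in WT. Syt1 lay at the lowest value of its library in 5 libraries. At 4 months the rTg4510 neutrophil sums lay below WT without overlap (7.96 to 8.75 against 9.02 to 9.89). The same held at 4 months for border macrophages (9.91 to 10.18 against 10.30 to 11.07). It held also for monocytes (6.24 to 6.28 against 6.89 to 7.35) and neurons (3.61 to 4.53 against 4.72 to 5.30). Border macrophage, monocyte and endothelial sums overlapped between genotypes at 6 and 8 months. At these ages at most 1 of 5 border macrophage markers and 2 of 3 monocyte markers were lower and 0 were higher. Of the 3 endothelial markers, Pecam1 was lower (-2.12 and -2.04 at 6 and 8 months) and Flt1 was higher (1.89 and 1.17). The part of these markers in the results below was not tested, except that results are also given without both replicates 1 of 8 months where that changed a call.

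At 2 months 6 of the 33 genes were higher in rTg4510 (4.76% of all genes) and 1 was lower (1.27% of all genes). From 4 months on most of the 33 were higher. At 4 months 22 (66.7%) were higher, against 14.1% of all genes, and 3 were lower (9.09%), against 9.1%. At 6 months 23 (69.7%) were higher, against 19.1% of all genes, and 3 were lower, against 14.9%. At 8 months 25 (75.8%) were higher, against 16% of all genes, and 2 were lower, against 9.78%. The same 22 genes were higher at 4, 6 and 8 months, and Smpd1 alone was lower at all 3 of these ages. Aga, Sgsh, Arsa and Ppt2 passed at no age. The share of lower genes among the 33 was near or under that of all genes at 4, 6 and 8 months. The shares of all genes were not matched to the 33 for signal. In the kept libraries the mean signal was 7.12 to 7.94 over the 33 and 5.83 to 5.92 over all genes.

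At 4 months 16 of the 33 were DEGs, and at 6 and at 8 months 17, all higher, against 9.47%, 11.3% and 10.5% of all genes, and 16 genes were DEGs at all 3 ages. No member was a lower DEG at 2, 4, 6 or 8 months, against 0.403%, 4.33%, 8.54% and 5.37% of all genes. At 2 months none was a higher DEG either, against 1.58% of all genes, by limma with or without moderated variances, although 15 of the 33 had an unadjusted p under 0.05, against 16.5% of all genes. The median log2 fold change of the 33 was 0.08, 0.57, 0.68 and 0.62 at the 4 ages, and that of all genes lay between -0.04 and 0.01. After quantile normalization the median of the 33 was 0.05, 0.43, 0.48 and 0.42 at the 4 ages. Then 12, 13 and 13 of the 33 were higher DEGs at 4, 6 and 8 months, and the share of all genes was not computed for that normalization.

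**Figure D1:**
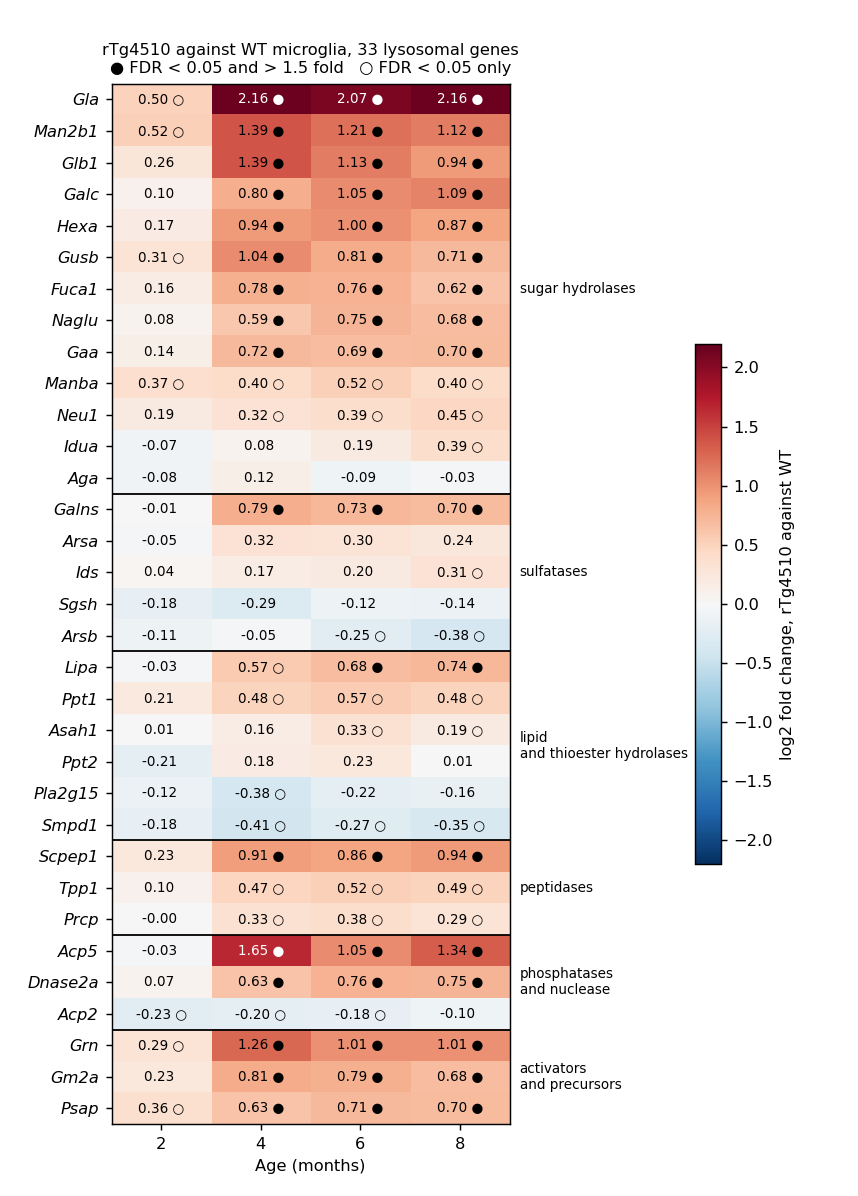
Log2 fold changes of rTg4510 against WT for the 33 genes (rows, grouped by role) at 2, 4, 6 and 8 months (columns), with colour and printed number giving the same value. Filled circles mark FDR under 0.05 and a change above 1.5 fold, open circles FDR under 0.05 only. Gla stands out with 2.16 at 4 and 8 months, most rows turn red at 4 months, and the blue cells lie mainly in Arsb, Smpd1, Pla2g15, Acp2 and Sgsh.

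The libraries themselves showed the same order. The mean log2 signal over the 33 genes was 7.25 ± 0.07 in WT (SD, n = 4) and 7.34 ± 0.06 in rTg4510 (n = 4) at 2 months. At 4 months it was 7.22 ± 0.05 (n = 3) and 7.79 ± 0.07 (n = 3), at 6 months 7.31 ± 0.05 (n = 4) and 7.87 ± 0.06 (n = 4), and at 8 months 7.20 ± 0.07 (n = 3) and 7.74 ± 0.02 (n = 3). The WT libraries of all ages lay between 7.12 and 7.37. The rTg4510 libraries overlapped them at 2 months (7.29 to 7.42) and lay above all of them from 4 months on (7.72 to 7.94). Gene by gene, the groups did not overlap for 7 of the 33 at 2 months (11% of all genes), 26 at 4 months (36.6%), 25 at 6 months (32.8%) and 27 at 8 months (36.7%).

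**Figure D2:**
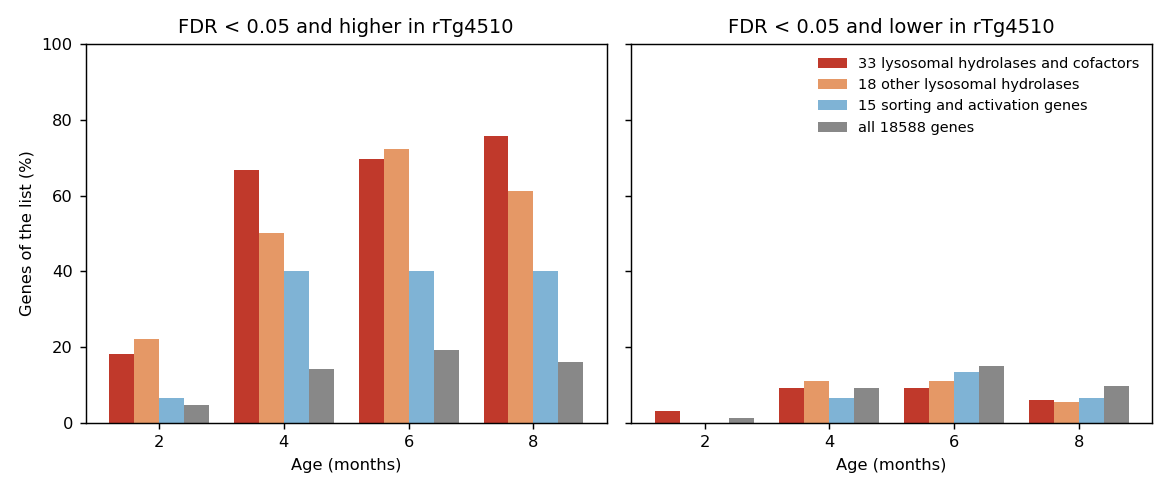
Share (%) of genes that passed at an FDR under 0.05, higher (left) or lower (right) in rTg4510, at each age. Bars stand for the 33 hydrolase genes, 18 further lysosomal hydrolases and related genes, 15 sorting and activation genes and all 18588 genes. In the left panel the bars of the 33 genes reach 66.7%, 69.7% and 75.8% at 4, 6 and 8 months beside 14.1%, 19.1% and 16% of all genes, and no bar of the right panel exceeds 14.9%.

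The sequence before the start sites of the 33 genes was also read. RefSeq promoter windows (GRCm38.p6, the bases before and shortly after the start) were held for 30 of the 33, all but Asah1, Aga and Galns. CACGTG, a palindrome that forms the core of the CLEAR element bound by TFEB, was searched on both strands and stood in the windows of 6 of 30 genes (20%), against 11.2% of 11802 genes with a window. The 7 matches are shown because these 6 genes include both risers and genes that passed at no age. Each line runs 5′ to 3′ on the strand of the gene, with the motif in capitals.
Gla, chrX:134601215-134601244, minus strand: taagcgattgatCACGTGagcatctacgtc
Gla, chrX:134601182-134601211, minus strand: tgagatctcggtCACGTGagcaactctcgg
Glb1, chr9:114401018-114401047, plus strand: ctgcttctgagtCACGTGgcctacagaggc
Gaa, chr11:119267811-119267840, plus strand: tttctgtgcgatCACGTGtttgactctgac
Naglu, chr11:101070009-101070038, plus strand: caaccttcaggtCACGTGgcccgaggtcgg
Sgsh, chr11:119355522-119355551, minus strand: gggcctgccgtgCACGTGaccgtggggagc
Arsa, chr15:89477423-89477452, minus strand: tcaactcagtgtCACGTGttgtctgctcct
The longer TCACGTGA, which contains CACGTG, stood in 1 of the 30 genes (3.33%), Gla, at both places shown, against 1.98% of the 11802 genes with a window. GAGGAAGT, a sequence of the kind that ETS factors such as PU.1 bind, was searched on either strand. It stood in 3 of the 30 genes (10%), Gla, Gusb and Ppt2, against 3.82% of the 11802 genes with a window. These shares count genes with a match in any window, and Ppt2 had 5 windows, Acp5 3 and Psap 2. Of the 6 genes with CACGTG, Gla, Glb1, Gaa and Naglu were higher at 4, 6 and 8 months in rTg4510, while Sgsh and Arsa passed at no age. Man2b1, Grn, Hexa and Gusb, which also rose, held no CACGTG in this window. A match is a description of letters and not of binding. Whether these sequences have a part in the changes was not tested.

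Of the sugar hydrolases, 4 of 13 were higher at 2 months, 11 at 4 and at 6 months, and 12 at 8 months, while none passed as lower. At 4 months 9 of the 13 were DEGs. Their values in each library follow, in the order of replicates 1 to 4 at 2 and 6 months, 1, 2 and 4 at 4 months, and 1 to 3 at 8 months.

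Gla (Entrez 11605, chrX:134588169-134601005, minus strand, GRCm38.p6) encodes α-galactosidase A, which removes the terminal galactose of globotriaosylceramide. Gla in WT libraries read 5.74, 5.22, 5.58 and 5.44 at 2 months, 5.55, 5.50 and 5.31 at 4 months, 5.54, 5.64, 5.48 and 5.92 at 6 months, and 5.72, 5.83 and 5.51 at 8 months. In rTg4510 libraries Gla read 6.24, 5.57, 6.16 and 6.003 at 2 months, 7.52, 7.47 and 7.86 at 4 months, 7.54, 7.57, 7.84 and 7.91 at 6 months, and 7.96, 7.93 and 7.66 at 8 months. The lowest rTg4510 library of 2 months lay inside the WT range, while every rTg4510 library of 4, 6 and 8 months lay above every WT library of any age. Gla in rTg4510 against WT had a log2 difference of 0.50 (SE 0.147, FDR = 0.0465) at 2 months and 2.16 (SE 0.169, FDR = 6.35e-09) at 4 months, 4.47 fold, and then 2.07 (SE 0.147, FDR = 4.78e-10) and 2.16 (SE 0.169, FDR = 4.89e-09) at 6 and 8 months. It was the largest increase among the 33 genes at 4, 6 and 8 months. The call at 2 months was marginal: when 1 library was dropped, its FDR in 19 of 28 cases was 0.0501 to 0.173, with log2 fold changes of 0.41 to 0.53.

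Man2b1 (Entrez 17159, chr8:85082730-85098739, plus strand, GRCm38.p6) encodes lysosomal α-mannosidase, which trims mannose from glycoproteins. Man2b1 in WT libraries read 8.72, 9.12, 9.02 and 9.05 at 2 months, 9.08, 9.06 and 9.03 at 4 months, 9.17, 9.11, 9.08 and 9.07 at 6 months, and 8.81, 9.10 and 9.08 at 8 months. In rTg4510 libraries Man2b1 read 9.45, 9.53, 9.53 and 9.50 at 2 months, 10.41, 10.46 and 10.46 at 4 months, 10.28, 10.31, 10.32 and 10.34 at 6 months, and 10.07, 10.15 and 10.13 at 8 months. The genotypes did not overlap at any age. For Man2b1 the log2 fold change was 0.52 (SE 0.0641, FDR = 4.21e-05) at 2 months, the largest of the 33 at that age, then 1.39 (SE 0.0741, FDR = 2.43e-11), 1.21 (SE 0.0641, FDR = 9.39e-12) and 1.12 (SE 0.0741, FDR = 4.82e-10) at 4, 6 and 8 months.

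Glb1 (Entrez 12091, chr9:114401078-114474379, plus strand, GRCm38.p6) encodes β-galactosidase, which acts on GM1 ganglioside and keratan sulfate. Glb1 in WT libraries read 5.96, 6.09, 6.29 and 6.05 at 2 months, 5.96, 6.31 and 5.88 at 4 months, 6.28, 6.18, 6.16 and 6.24 at 6 months, and 5.94, 6.10 and 6.21 at 8 months. In rTg4510 libraries Glb1 read 6.38, 6.29, 6.51 and 6.27 at 2 months, 7.35, 7.49 and 7.47 at 4 months, 7.22, 7.42, 7.40 and 7.35 at 6 months, and 6.93, 7.10 and 7.02 at 8 months. At 2 months a WT library reached the rTg4510 range. From 4 months on the groups were apart. The log2 fold change of Glb1 was 0.26 (SE 0.0851, FDR = 0.0791), 1.39 (SE 0.0983, FDR = 1.51e-09), 1.13 (SE 0.0851, FDR = 1.06e-09) and 0.94 (SE 0.0983, FDR = 2.23e-07) at 2, 4, 6 and 8 months. Glb1 shares 6.89% of its exonic bases with Tmppe on the same strand. At 2 months it passed without WT replicate 3 of 2 months (0.33, FDR = 0.0321) or without WT replicate 2 of 4 months (0.26, FDR = 0.0303).

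Hexa (Entrez 15211, chr9:59539540-59565109, plus strand, GRCm38.p6) encodes the α subunit of β-hexosaminidase, which cuts GM2 ganglioside. Hexa in WT libraries read 8.62, 8.80, 8.94 and 8.87 at 2 months, 8.91, 8.80 and 8.86 at 4 months, 8.82, 8.70, 8.72 and 8.77 at 6 months, and 8.59, 8.60 and 8.79 at 8 months. In rTg4510 libraries Hexa read 8.94, 8.93, 9.11 and 8.95 at 2 months, 9.80, 9.78 and 9.80 at 4 months, 9.72, 9.69, 9.78 and 9.84 at 6 months, and 9.47, 9.57 and 9.55 at 8 months. All rTg4510 libraries from 4 months on exceeded all WT libraries. Hexa had log2 fold changes of 0.17 (SE 0.0583, FDR = 0.0945), 0.94 (SE 0.0674, FDR = 1.88e-09), 1.004 (SE 0.0583, FDR = 3.67e-11) and 0.87 (SE 0.0674, FDR = 4.3e-09) at the 4 ages. Without WT replicate 3 of 2 months the 2-month difference passed (0.22, FDR = 0.039).

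Gusb (Entrez 110006, chr5:129989011-130003049, minus strand, GRCm38.p6) encodes β-glucuronidase, which acts on glycosaminoglycans. Gusb in WT libraries read 7.33, 7.49, 7.67 and 7.64 at 2 months, 7.85, 7.64 and 7.72 at 4 months, 7.80, 7.73, 7.75 and 7.67 at 6 months, and 7.52, 7.63 and 7.70 at 8 months. In rTg4510 libraries Gusb read 7.81, 7.72, 7.92 and 7.91 at 2 months, 8.76, 8.66 and 8.91 at 4 months, 8.53, 8.50, 8.53 and 8.63 at 6 months, and 8.22, 8.31 and 8.44 at 8 months. The groups did not overlap at any age. In Gusb the genotypes differed on the log2 scale by 0.31 (SE 0.0729, FDR = 0.0111), 1.04 (SE 0.0842, FDR = 9.34e-09), 0.81 (SE 0.0729, FDR = 1.43e-08) and 0.71 (SE 0.0842, FDR = 1.23e-06).

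Galc (Entrez 14420, chr12:98202287-98259459, minus strand, GRCm38.p6) encodes galactosylceramidase, which degrades the myelin lipid galactosylceramide. Galc in WT libraries read 5.60, 5.55, 5.71 and 5.69 at 2 months, 5.81, 5.67 and 5.95 at 4 months, 5.98, 5.80, 5.56 and 5.91 at 6 months, and 5.58, 5.92 and 5.85 at 8 months. In rTg4510 libraries Galc read 5.61, 5.78, 5.75 and 5.80 at 2 months, 6.56, 6.49 and 6.79 at 4 months, 6.73, 6.86, 7.01 and 6.83 at 6 months, and 6.80, 6.86 and 6.95 at 8 months. WT and rTg4510 overlapped at 2 months and were apart afterwards. Galc in rTg4510 against WT had a log2 difference of 0.10 (SE 0.0922, FDR = 0.693), 0.80 (SE 0.107, FDR = 6.48e-06), 1.05 (SE 0.0922, FDR = 1.07e-08) and 1.09 (SE 0.107, FDR = 8.57e-08), so that its point estimate was largest at 8 months. Galc shares 8.48% of its exonic bases with an antisense gene.

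**Figure D3:**
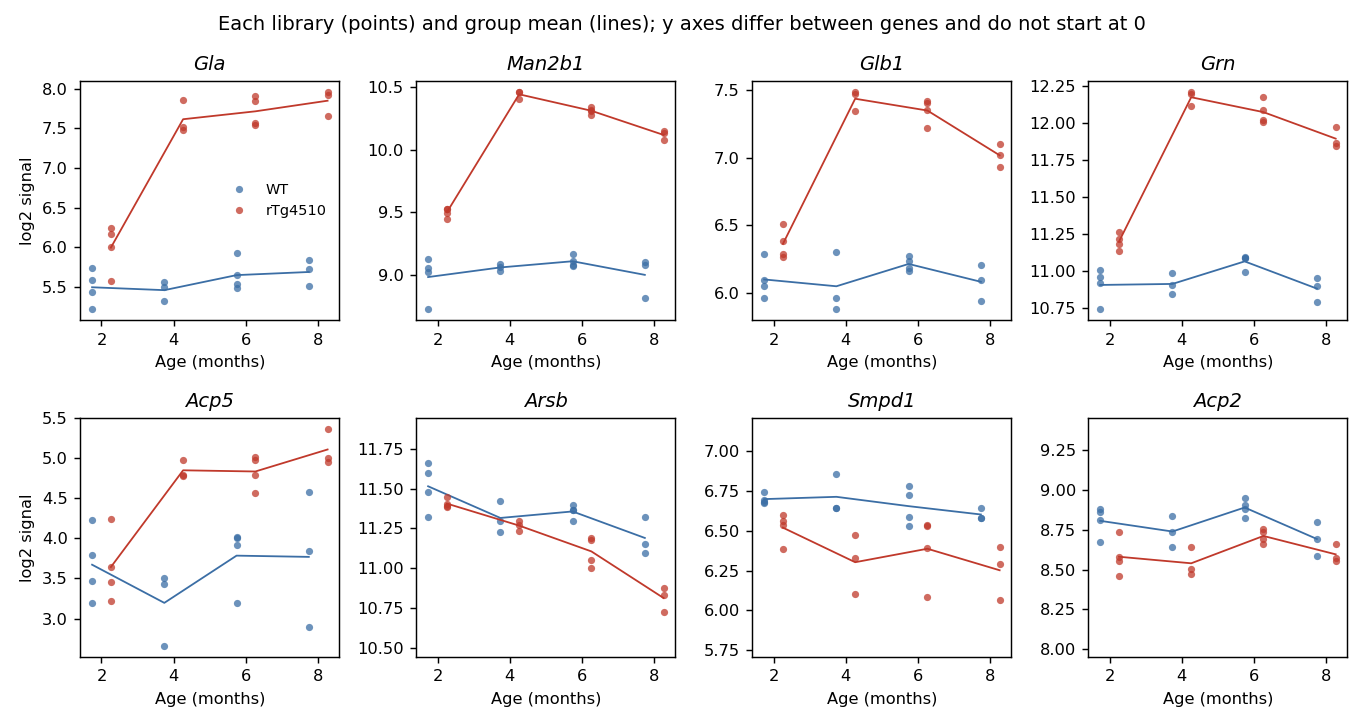
Log2 signal of each library (points, WT blue, rTg4510 red) and group means (lines) against age in months for 8 of the genes; the y axes differ and do not start at 0. In Gla, Man2b1, Glb1, Grn and Acp5 the rTg4510 points rise away from WT between 2 and 4 months, and in Arsb the rTg4510 points fall below WT at 6 and 8 months.

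Gaa (Entrez 14387, chr11:119267963-119285458, plus strand, GRCm38.p6) encodes acid α-glucosidase, which degrades lysosomal glycogen. Gaa in WT libraries read 6.52, 6.65, 6.63 and 6.71 at 2 months, 6.73, 6.47 and 6.53 at 4 months, 6.58, 6.61, 6.55 and 6.68 at 6 months, and 6.45, 6.50 and 6.50 at 8 months. In rTg4510 libraries Gaa read 6.68, 6.83, 6.90 and 6.63 at 2 months, 7.37, 7.24 and 7.28 at 4 months, 7.17, 7.28, 7.40 and 7.32 at 6 months, and 7.10, 7.28 and 7.18 at 8 months. The groups were apart from 4 months on. For Gaa the log2 fold change was 0.14 (SE 0.0651, FDR = 0.295) at 2 months and 0.72 (SE 0.0752, FDR = 2.63e-07), 0.69 (SE 0.0651, FDR = 3.15e-08) and 0.70 (SE 0.0752, FDR = 3.05e-07) at the later ages.

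Fuca1 (Entrez 71665, chr4:135920726-135940300, plus strand, GRCm38.p6) encodes α-fucosidase. Fuca1 in WT libraries read 9.10, 9.28, 9.28 and 9.24 at 2 months, 9.26, 9.27 and 9.05 at 4 months, 9.28, 9.27, 9.13 and 9.32 at 6 months, and 9.13, 9.27 and 9.37 at 8 months. In rTg4510 libraries Fuca1 read 9.20, 9.37, 9.50 and 9.46 at 2 months, 9.92, 9.99 and 10.02 at 4 months, 9.91, 9.98, 10.12 and 10.03 at 6 months, and 9.84, 9.94 and 9.85 at 8 months. The groups overlapped only at 2 months. The log2 fold change of Fuca1 was 0.16 (SE 0.0683, FDR = 0.243), 0.78 (SE 0.0789, FDR = 1.69e-07), 0.76 (SE 0.0683, FDR = 1.47e-08) and 0.62 (SE 0.0789, FDR = 3.02e-06). After quantile normalization Fuca1 was 0.39 at 8 months, and still passed.

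Manba (Entrez 110173, chr3:135485611-135571404, plus strand, GRCm38.p6) encodes β-mannosidase, the last enzyme of N-glycan degradation in the lysosome. Manba in WT libraries read 5.80, 5.83, 5.77 and 6.10 at 2 months, 6.34, 6.24 and 5.95 at 4 months, 6.27, 6.09, 6.20 and 6.29 at 6 months, and 6.22, 6.05 and 6.26 at 8 months. In rTg4510 libraries Manba read 6.21, 6.09, 6.37 and 6.32 at 2 months, 6.61, 6.35 and 6.75 at 4 months, 6.83, 6.67, 6.77 and 6.64 at 6 months, and 6.49, 6.54 and 6.69 at 8 months. The rTg4510 libraries stood above WT at every age but for 1 overlap at 2 months. Manba had log2 fold changes of 0.37 (SE 0.0972, FDR = 0.0229), 0.40 (SE 0.112, FDR = 0.0128), 0.52 (SE 0.0972, FDR = 0.00025) and 0.40 (SE 0.112, FDR = 0.011). Each call but that of 6 months rested on certain libraries: at 2 months it was lost without rTg4510 replicate 3 or 4 or WT replicate 1, 2 or 3 (0.33 to 0.36, FDR = 0.0618 to 0.0856). At 4 months it was lost without replicate 4 of either genotype (0.28 to 0.30, FDR = 0.0864 to 0.1). At 8 months it was lost without rTg4510 replicate 3 or WT replicate 2 (0.34, FDR = 0.0564 to 0.0594).

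Among the other sugar hydrolases, Naglu, an enzyme of heparan sulfate degradation, was higher at 4 months (0.59 (SE 0.213, FDR = 0.049)), 6 months (0.75 (SE 0.185, FDR = 0.00309)) and 8 months (0.68 (SE 0.213, FDR = 0.0229)), but the call at 4 months was lost in 21 of 28 fits that each left out 1 library (0.46 to 0.65, FDR = 0.0509 to 0.187). At 8 months the Naglu call was lost without rTg4510 replicate 2 or WT replicate 1 (0.37 to 0.64, FDR = 0.0739 to 0.182), and without both replicates 1 it was 0.38 (FDR = 0.234). Neu1, lysosomal sialidase, was higher at 4 months (0.32 (SE 0.0987, FDR = 0.0242)), 6 months (0.39 (SE 0.0855, FDR = 0.00121)) and 8 months (0.45 (SE 0.0987, FDR = 0.00138)), and its 4-month call was lost without rTg4510 replicate 4 or WT replicate 2 (0.25 to 0.27, FDR = 0.105 to 0.118). Idua, which removes iduronic acid from heparan and dermatan sulfate, was higher at 8 months only (0.39 (SE 0.123, FDR = 0.0226)). That call was lost without rTg4510 replicate 1 or 3 or WT replicate 1 or 2 (0.36 to 0.38, FDR = 0.0604 to 0.072) and without both replicates 1 (0.36, FDR = 0.132). Aga, which cuts the bond between asparagine and sugar, passed at no age, with log2 fold changes of -0.09 to 0.12.

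The 5 sulfatases, which remove sulfate groups from glycosaminoglycans or sulfatide, were less uniform. Galns alone was higher at 4, 6 and 8 months, Ids was higher at 8 months, and Arsb was lower at 6 and 8 months. Sgsh and Arsa passed at no age.

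Galns (Entrez 50917, chr8:122578237-122611701, minus strand, GRCm38.p6) encodes the galactosamine-6-sulfatase that acts on keratan sulfate. Galns in WT libraries read 4.85, 4.87, 4.55 and 4.71 at 2 months, 4.42, 4.56 and 4.60 at 4 months, 4.35, 4.94, 4.55 and 4.84 at 6 months, and 4.48, 4.65 and 4.42 at 8 months. In rTg4510 libraries Galns read 5.16, 4.53, 4.68 and 4.58 at 2 months, 5.52, 5.13 and 5.30 at 4 months, 5.40, 5.60, 5.17 and 5.44 at 6 months, and 5.18, 5.21 and 5.27 at 8 months. The groups overlapped at 2 months and not from 4 months on. In Galns the genotypes differed on the log2 scale by -0.01 (SE 0.138, FDR = 0.991) at 2 months, 0.79 (SE 0.159, FDR = 0.000718) at 4 months, 0.73 (SE 0.138, FDR = 0.000249) at 6 months and 0.70 (SE 0.159, FDR = 0.00201) at 8 months.

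Arsb (Entrez 11881, chr13:93771679-93943016, plus strand, GRCm38.p6) encodes arylsulfatase B, which acts on dermatan and chondroitin sulfate. Arsb in WT libraries read 11.32, 11.66, 11.60 and 11.48 at 2 months, 11.30, 11.42 and 11.23 at 4 months, 11.29, 11.40, 11.36 and 11.37 at 6 months, and 11.09, 11.15 and 11.32 at 8 months. In rTg4510 libraries Arsb read 11.39, 11.40, 11.45 and 11.39 at 2 months, 11.23, 11.27 and 11.30 at 4 months, 11.00025, 11.05, 11.19 and 11.18 at 6 months, and 10.73, 10.83 and 10.88 at 8 months. Every rTg4510 library of 6 and 8 months lay below every WT library of the same age, and the rTg4510 libraries of 8 months were the lowest of all. Arsb in rTg4510 against WT had a log2 difference of -0.11 (SE 0.0639, FDR = 0.441) and -0.05 (SE 0.0738, FDR = 0.7) at 2 and 4 months, -0.25 (SE 0.0639, FDR = 0.00414) at 6 months and -0.38 (SE 0.0738, FDR = 0.000494) at 8 months. Arsb shares 48.2% of its exonic bases with the lincRNA Gm26527 on the opposite strand and 11.5% with a further non-coding gene. Whether strand was used in the counting is not stated, so reads of these genes may be mixed. After quantile normalization Arsb was lower at all 4 ages, with -0.30 (FDR = 0.00679) at 2 months, -0.44 (FDR = 0.000196) at 4 months, -0.70 at 6 months and -0.80 at 8 months.

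Ids, which removes sulfate from iduronic acid, had log2 fold changes of 0.04, 0.17 and 0.20 before 8 months and passed at 8 months (0.31 (SE 0.0926, FDR = 0.0163)). The Ids call was lost without rTg4510 replicate 2 or WT replicate 3 of that age (0.22 to 0.29, FDR = 0.0563 to 0.12), and with the replicate number as a block it was 0.31 (FDR = 0.0579). At 6 months Ids passed without rTg4510 replicate 3 of 2 months, 1 of 6 months or 2 of 8 months (0.20 to 0.25, FDR = 0.0221 to 0.0447). Arsa, arylsulfatase A, had log2 fold changes of -0.05 to 0.32, and passed at 6 months only without WT replicate 4 (0.46, FDR = 0.0364). Sgsh, the sulfamidase of heparan sulfate, had log2 fold changes of -0.29 to -0.12. Arsa shares 19.8% of its exonic bases with an antisense gene, and Sgsh 21.9% with Card14 on the opposite strand.

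The lipid and thioester hydrolases split by gene. Of 6, Lipa and Ppt1 were higher at 4, 6 and 8 months and Asah1 at 6 and 8 months, while Smpd1 was lower at 4, 6 and 8 months and Pla2g15 at 4 months.

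Lipa (Entrez 16889, chr19:34492316-34527474, minus strand, GRCm38.p6) encodes lysosomal acid lipase, which frees cholesterol from its esters. Lipa in WT libraries read 7.31, 7.48, 7.60 and 7.47 at 2 months, 7.57, 7.48 and 7.37 at 4 months, 7.53, 7.38, 7.56 and 7.55 at 6 months, and 7.37, 7.32 and 7.55 at 8 months. In rTg4510 libraries Lipa read 7.34, 7.43, 7.55 and 7.40 at 2 months, 7.98, 7.97 and 8.19 at 4 months, 8.14, 8.19, 8.26 and 8.15 at 6 months, and 8.19, 8.18 and 8.09 at 8 months. The groups overlapped at 2 months and were apart afterwards. For Lipa the log2 fold change was -0.03 (SE 0.0678, FDR = 0.884), 0.57 (SE 0.0783, FDR = 9.47e-06), 0.68 (SE 0.0678, FDR = 6.67e-08) and 0.74 (SE 0.0783, FDR = 2.54e-07) at the 4 ages.

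Smpd1 (Entrez 20597, chr7:105554360-105558389, plus strand, GRCm38.p6) encodes acid sphingomyelinase, which turns sphingomyelin into ceramide. Smpd1 in WT libraries read 6.68, 6.68, 6.69 and 6.74 at 2 months, 6.85, 6.64 and 6.64 at 4 months, 6.73, 6.53, 6.58 and 6.78 at 6 months, and 6.58, 6.64 and 6.58 at 8 months. In rTg4510 libraries Smpd1 read 6.38, 6.53, 6.60 and 6.56 at 2 months, 6.48, 6.10 and 6.33 at 4 months, 6.09, 6.53, 6.39 and 6.53 at 6 months, and 6.29, 6.06 and 6.40 at 8 months. The rTg4510 libraries lay below WT at 2, 4 and 8 months, and at 6 months the highest rTg4510 libraries reached the lowest WT value. The log2 fold change of Smpd1 was -0.18 (SE 0.0955, FDR = 0.374) at 2 months, -0.41 (SE 0.11, FDR = 0.00892) at 4 months, -0.27 (SE 0.0955, FDR = 0.0354) at 6 months and -0.35 (SE 0.11, FDR = 0.0227) at 8 months. With the replicate number as a block it was -0.27 at 6 months (FDR = 0.0502). At 4 months the call was lost without rTg4510 replicate 2 or WT replicate 1 (-0.34 to -0.31, FDR = 0.0545 to 0.0678). At 6 months it was lost without rTg4510 replicate 1 or 3 or WT replicate 1 or 4 (-0.27 to -0.17, FDR = 0.0618 to 0.153). At 8 months it was lost without replicate 2 of either genotype (-0.33 to -0.26, FDR = 0.067 to 0.14), and without both replicates 1 it was -0.38 (FDR = 0.069).

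Pla2g15 (Entrez 192654, chr8:106150354-106164718, plus strand, GRCm38.p6) encodes lysosomal phospholipase A2. Pla2g15 in WT libraries read 7.91, 8.28, 8.31 and 8.32 at 2 months, 8.39, 8.42 and 8.09 at 4 months, 8.34, 8.49, 8.18 and 8.35 at 6 months, and 8.07, 8.26 and 8.26 at 8 months. In rTg4510 libraries Pla2g15 read 7.96, 8.10, 8.15 and 8.11 at 2 months, 7.95, 7.81 and 8.003 at 4 months, 8.10, 7.94, 8.34 and 8.09 at 6 months, and 8.16, 8.06 and 7.89 at 8 months. All 3 rTg4510 libraries of 4 months lay below the 3 WT libraries, and the groups overlapped at the other ages. Pla2g15 had log2 fold changes of -0.12 (SE 0.102, FDR = 0.637), -0.38 (SE 0.117, FDR = 0.022), -0.22 (SE 0.102, FDR = 0.1) and -0.16 (SE 0.117, FDR = 0.362). The 4-month call was lost without rTg4510 replicate 2 or WT replicate 1 or 2 (-0.34 to -0.32, FDR = 0.082 to 0.0984), and Pla2g15 passed at 6 months without rTg4510 replicate 3 (-0.29, FDR = 0.0367). It also passed at 6 months after quantile normalization (-0.34, FDR = 0.0112).

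Ppt1, the palmitoyl-protein thioesterase lost in an infantile form of neuronal ceroid lipofuscinosis, was higher at 4 months (0.48 (SE 0.073, FDR = 3.33e-05)), 6 months (0.57 (SE 0.0632, FDR = 3.41e-07)) and 8 months (0.48 (SE 0.073, FDR = 2.64e-05)). After quantile normalization Ppt1 was 0.29, 0.33 and 0.26 at these ages, and still passed. At 2 months Ppt1 had 0.21 (SE 0.0632, FDR = 0.0519), and it passed there without any of 6 libraries (0.21 to 0.26, FDR = 0.0156 to 0.0498): rTg4510 replicate 1 and WT replicate 4 of 2 months, rTg4510 replicate 4 of 4 months, rTg4510 replicates 1 and 4 of 6 months, and WT replicate 3 of 8 months. Asah1, acid ceramidase, was higher at 6 months (0.33 (SE 0.0572, FDR = 0.000104)) and 8 months (0.19 (SE 0.0661, FDR = 0.038)). With the replicate number as a block the 8-month value of Asah1 was 0.19 (FDR = 0.14), without both replicates 1 it was 0.15 (FDR = 0.231), and without any 1 of rTg4510 replicates 1 to 3 or WT replicates 1 and 2 it was 0.16 to 0.21 (FDR = 0.0591 to 0.134). At 4 months Asah1 passed only without rTg4510 replicate 1 (0.21, FDR = 0.0362). Ppt2, a related thioesterase, had log2 fold changes of -0.21 to 0.23, with SEs of 0.191 to 0.221, and shares 43.1% of its exonic bases with a non-coding gene.

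All 3 peptidases were higher from 4 months on, and none passed at 2 months.

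Scpep1 (Entrez 74617, chr11:88924020-88955442, minus strand, GRCm38.p6) encodes a serine carboxypeptidase. Scpep1 in WT libraries read 5.60, 5.69, 5.63 and 5.63 at 2 months, 5.81, 5.43 and 5.54 at 4 months, 5.91, 5.61, 5.77 and 5.92 at 6 months, and 5.70, 5.93 and 5.60 at 8 months. In rTg4510 libraries Scpep1 read 5.73, 5.88, 5.86 and 6.004 at 2 months, 6.62, 6.32 and 6.58 at 4 months, 6.58, 6.71, 6.80 and 6.58 at 6 months, and 6.58, 6.75 and 6.72 at 8 months. The groups did not overlap at any age, and the gap widened at 4 months. In Scpep1 the genotypes differed on the log2 scale by 0.23 (SE 0.092, FDR = 0.177), 0.91 (SE 0.106, FDR = 1.17e-06), 0.86 (SE 0.092, FDR = 1.69e-07) and 0.94 (SE 0.106, FDR = 5.97e-07).

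Tpp1 (Entrez 12751, chr7:105744811-105752282, minus strand, GRCm38.p6) encodes tripeptidyl peptidase 1, lost in a late infantile form of neuronal ceroid lipofuscinosis. Tpp1 in WT libraries read 9.02, 9.28, 9.18 and 9.19 at 2 months, 9.21, 9.04 and 9.02 at 4 months, 9.26, 9.05, 9.08 and 9.15 at 6 months, and 9.01, 8.97 and 9.10 at 8 months. In rTg4510 libraries Tpp1 read 9.26, 9.19, 9.41 and 9.21 at 2 months, 9.60, 9.55 and 9.55 at 4 months, 9.64, 9.62, 9.63 and 9.73 at 6 months, and 9.44, 9.46 and 9.66 at 8 months. The groups overlapped at 2 months only. Tpp1 in rTg4510 against WT had a log2 difference of 0.10 (SE 0.0634, FDR = 0.489), 0.47 (SE 0.0732, FDR = 4.41e-05), 0.52 (SE 0.0634, FDR = 1.21e-06) and 0.49 (SE 0.0732, FDR = 2.2e-05). After quantile normalization Tpp1 was 0.27, 0.30 and 0.28 at 4, 6 and 8 months, and still passed.

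Prcp (Entrez 72461, chr7:92875253-92934581, plus strand, GRCm38.p6) encodes prolylcarboxypeptidase, which cuts after proline. Prcp in WT libraries read 9.23, 9.33, 9.28 and 9.23 at 2 months, 9.27, 9.18 and 9.11 at 4 months, 9.30, 9.14, 9.20 and 9.14 at 6 months, and 9.11, 9.13 and 9.21 at 8 months. In rTg4510 libraries Prcp read 9.24, 9.20, 9.31 and 9.30 at 2 months, 9.49, 9.55 and 9.52 at 4 months, 9.52, 9.61, 9.62 and 9.54 at 6 months, and 9.46, 9.41 and 9.46 at 8 months. The libraries of both genotypes mixed at 2 months and separated from 4 months on. For Prcp the log2 fold change was -0.002 (SE 0.0396, FDR = 0.992) at 2 months and 0.33 (SE 0.0457, FDR = 9.6e-06), 0.38 (SE 0.0396, FDR = 1.25e-07) and 0.29 (SE 0.0457, FDR = 3.99e-05) at 4, 6 and 8 months. After quantile normalization Prcp was 0.14 (FDR = 0.0228) at 4 months and 0.15 (FDR = 0.00382) at 6 months, and at 8 months it did not pass (0.07, FDR = 0.237).

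The acid phosphatases Acp5 and Acp2 moved in opposite directions, and the nuclease Dnase2a rose.

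Acp5 (Entrez 11433, chr9:22126727-22135746, minus strand, GRCm38.p6) encodes tartrate-resistant acid phosphatase, known from osteoclasts and activated macrophages. Acp5 in WT libraries read 3.47, 3.19, 4.22 and 3.80 at 2 months, 3.43, 2.66 and 3.50 at 4 months, 4.01, 4.004, 3.92 and 3.20 at 6 months, and 3.84, 4.57 and 2.90 at 8 months. In rTg4510 libraries Acp5 read 4.24, 3.46, 3.65 and 3.22 at 2 months, 4.78, 4.78 and 4.98 at 4 months, 5.01, 4.97, 4.79 and 4.56 at 6 months, and 5.004, 5.37 and 4.95 at 8 months. At 2 months the libraries mixed, and from 4 months on the rTg4510 libraries lay above WT of the same age. Its replicates varied more than those of the other 32 genes, with an SE of 0.305 to 0.352 per difference, and its lowest library lay 1.04 above the lowest value of that library. The log2 fold change of Acp5 was -0.03 (SE 0.305, FDR = 0.983) at 2 months, 1.65 (SE 0.352, FDR = 0.00132) at 4 months, 1.05 (SE 0.305, FDR = 0.0108) at 6 months and 1.34 (SE 0.352, FDR = 0.00683) at 8 months. The call at 8 months was lost without WT replicate 3 (0.90, FDR = 0.062). Acp5 shares 8.01% of its exonic bases with a non-coding gene on the opposite strand.

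Acp2 (Entrez 11432, chr2:91202812-91214098, plus strand, GRCm38.p6) encodes lysosomal acid phosphatase, a membrane-bound enzyme trafficked without mannose 6-phosphate. Acp2 in WT libraries read 8.67, 8.88, 8.81 and 8.86 at 2 months, 8.74, 8.83 and 8.64 at 4 months, 8.88, 8.95, 8.91 and 8.83 at 6 months, and 8.69, 8.58 and 8.80 at 8 months. In rTg4510 libraries Acp2 read 8.46, 8.58, 8.73 and 8.55 at 2 months, 8.51, 8.47 and 8.64 at 4 months, 8.66, 8.75, 8.74 and 8.69 at 6 months, and 8.55, 8.66 and 8.57 at 8 months. The rTg4510 libraries lay below WT at 4 and 6 months, barely so at 4 months, and overlapped WT at 2 and 8 months. Acp2 had log2 fold changes of -0.23 (SE 0.0596, FDR = 0.0248) at 2 months, -0.20 (SE 0.0688, FDR = 0.0407) at 4 months, -0.18 (SE 0.0596, FDR = 0.0249) at 6 months and -0.10 (SE 0.0688, FDR = 0.343) at 8 months. None of its 3 calls held in every fit without 1 library. At 2 months it was lost without rTg4510 replicate 1, 2 or 4 or WT replicate 2, 3 or 4 (-0.22 to -0.18, FDR = 0.0544 to 0.107). At 4 months it was lost without replicate 1 or 2 of either genotype (-0.20 to -0.15, FDR = 0.085 to 0.181), and at 6 months without rTg4510 replicate 1 or 4 or WT replicate 2 or 3 (-0.17 to -0.16, FDR = 0.0519 to 0.0717). Acp2 shares 13.3% of its exonic bases with Ddb2 on the opposite strand. After quantile normalization Acp2 was lower at 2 months (-0.29, FDR = 0.0048), 4 months (-0.33), 6 months (-0.34) and 8 months (-0.25, FDR = 0.00893).

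Dnase2a (Entrez 13423, chr8:84908755-84911703, plus strand, GRCm38.p6) encodes deoxyribonuclease II, which degrades the DNA of engulfed cells. Dnase2a in WT libraries read 6.76, 6.49, 6.65 and 6.41 at 2 months, 6.62, 6.41 and 6.54 at 4 months, 6.64, 6.62, 6.70 and 6.80 at 6 months, and 6.42, 6.78 and 6.40 at 8 months. In rTg4510 libraries Dnase2a read 6.67, 6.53, 6.86 and 6.53 at 2 months, 7.24, 7.02 and 7.20 at 4 months, 7.35, 7.48, 7.41 and 7.55 at 6 months, and 7.24, 7.31 and 7.30 at 8 months. From 4 months on the groups were apart. In Dnase2a the genotypes differed on the log2 scale by 0.07 (SE 0.0919, FDR = 0.806), 0.63 (SE 0.106, FDR = 0.000122), 0.76 (SE 0.0919, FDR = 1.13e-06) and 0.75 (SE 0.106, FDR = 1.12e-05).

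The activators and precursors were higher at 4, 6 and 8 months in 3 of 3 cases, and Psap and Grn also at 2 months.

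Psap (Entrez 19156, chr10:60277628-60302600, plus strand, GRCm38.p6) encodes prosaposin, cut into the saposins that present glycosphingolipids to their hydrolases. Psap in WT libraries read 8.99, 9.22, 9.21 and 9.24 at 2 months, 9.20, 9.22 and 9.19 at 4 months, 9.36, 9.34, 9.31 and 9.36 at 6 months, and 9.12, 9.31 and 9.33 at 8 months. In rTg4510 libraries Psap read 9.50, 9.55, 9.51 and 9.52 at 2 months, 9.75, 9.83 and 9.91 at 4 months, 10.05, 10.00025, 10.06 and 10.09 at 6 months, and 9.98, 9.94 and 9.94 at 8 months. The groups did not overlap at any age. Psap in rTg4510 against WT had a log2 difference of 0.36 (SE 0.0466, FDR = 7.61e-05), 0.63 (SE 0.0538, FDR = 2.27e-08), 0.71 (SE 0.0466, FDR = 1.88e-10) and 0.70 (SE 0.0538, FDR = 3.86e-09). After quantile normalization Psap was 0.46 at 8 months, and still passed.

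Gm2a (Entrez 14667, chr11:55097985-55113029, plus strand, GRCm38.p6) encodes the GM2 activator, which lifts GM2 ganglioside out of the membrane for β-hexosaminidase. Gm2a in WT libraries read 9.50, 9.58, 9.67 and 9.57 at 2 months, 9.53, 9.48 and 9.24 at 4 months, 9.56, 9.65, 9.69 and 9.69 at 6 months, and 9.43, 9.49 and 9.57 at 8 months. In rTg4510 libraries Gm2a read 9.85, 9.74, 9.87 and 9.79 at 2 months, 10.06, 10.21 and 10.42 at 4 months, 10.39, 10.33, 10.67 and 10.36 at 6 months, and 10.08, 10.25 and 10.20 at 8 months. The rTg4510 libraries lay above WT at every age, closely so at 2 months. For Gm2a the log2 fold change was 0.23 (SE 0.0783, FDR = 0.0985), 0.81 (SE 0.0904, FDR = 6.26e-07), 0.79 (SE 0.0783, FDR = 6.32e-08) and 0.68 (SE 0.0904, FDR = 5.08e-06). At 2 months Gm2a passed without rTg4510 replicate 3 of 6 months (0.23, FDR = 0.0497). After quantile normalization Gm2a was 0.49 at 6 months and 0.42 at 8 months, and still passed.

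Grn (Entrez 14824, chr11:102430507-102436809, plus strand, GRCm38.p6) encodes progranulin. Grn in WT libraries read 10.74, 10.92, 10.96 and 11.01 at 2 months, 10.99, 10.90 and 10.85 at 4 months, 11.09, 10.99, 11.10 and 11.09 at 6 months, and 10.79, 10.90 and 10.95 at 8 months. In rTg4510 libraries Grn read 11.18, 11.22, 11.26 and 11.14 at 2 months, 12.12, 12.21 and 12.20 at 4 months, 12.02, 12.01, 12.18 and 12.09 at 6 months, and 11.85, 11.98 and 11.86 at 8 months. The 14 rTg4510 libraries lay above the 14 WT libraries without overlap. The log2 fold change of Grn was 0.29 (SE 0.0531, FDR = 0.00125) at 2 months, 1.26 (SE 0.0613, FDR = 5.2e-12) at 4 months, 1.01 (SE 0.0531, FDR = 7.62e-12) at 6 months and 1.01 (SE 0.0613, FDR = 1.44e-10) at 8 months. The 4-month change was 2.4 fold, and it had the smallest FDR of the 33 genes at that age. After quantile normalization Grn was 0.15 at 2 months, where it no longer passed (FDR = 0.0683), and 0.82, 0.48 and 0.55 at 4, 6 and 8 months.

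The calls of single ages also depended on which libraries entered the fit. When only the libraries of the age compared were fitted, the fold changes stayed as they were and the FDR rose. Gla, Gusb, Manba, Acp2 and Grn then no longer passed at 2 months (FDR = 0.0816 to 0.273), nor Naglu, Manba, Neu1, Smpd1, Pla2g15 and Acp2 at 4 months (0.092 to 0.227), nor Smpd1 at 6 months (0.155). At 8 months Naglu, Manba, Ids, Arsb, Asah1, Smpd1 and Acp5 no longer passed (FDR = 0.0597 to 0.271). With all 32 libraries Man2b1 alone passed at 2 months. Naglu, Manba, Galns, Pla2g15 and Ppt1 were lost at 4 months, Arsb, Smpd1, Ppt1 and Acp2 at 6 months, and Naglu, Idua, Galns, Ids, Arsb, Asah1, Smpd1 and Ppt1 at 8 months, while Sgsh passed as lower and Asah1 as higher at 4 months. Moderated variances ended the calls of Acp2 at 2 months (FDR = 0.0559) and 4 months (0.0751) and of Asah1 at 8 months (0.0739). Quantile normalization ended those of Grn at 2 months (0.0683), Naglu at 4 months (0.0566), and Asah1 (0.0671) and Prcp (0.237) at 8 months.

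An interaction term asked whether the genotype difference changed between neighbouring ages. Between 2 and 4 months it grew in 18 of the 33 genes (54.5%), against 5.26% of all genes, and it declined in none of them, against 2.08% of all genes. By limma with moderated variances 17 grew and 0 declined, and 19 of the 33 had an unadjusted p under 0.05, against 19.6% of all genes. The 18 were Hexa, Gla, Glb1, Gaa, Gusb, Galc, Man2b1, Fuca1, Galns, Lipa, Tpp1, Scpep1, Prcp, Acp5, Dnase2a, Psap, Gm2a and Grn. The gain was 1.68 (SE 0.466, FDR = 0.031) on the log2 scale in Acp5, 1.66 (SE 0.224, FDR = 7.91e-05) in Gla, 1.12 (SE 0.13, FDR = 1.13e-05) in Glb1, 0.97 (SE 0.0811, FDR = 1.58e-07) in Grn and 0.87 (SE 0.098, FDR = 8.9e-06) in Man2b1. The smallest gains among the 18 were those of Psap (0.27 (SE 0.0712, FDR = 0.0237)), Prcp (0.34 (SE 0.0605, FDR = 0.0014)) and Tpp1 (0.37 (SE 0.0969, FDR = 0.0208)). Manba, already higher at 2 months, had a gain of 0.02 (SE 0.148, FDR = 0.956). With all 32 libraries 7 of the 33 genes passed. The shares of all genes that passed were not computed for that fit or with moderated variances.

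Of these 18 calls, 5 depended on a library. The Acp5 gain was lost without rTg4510 replicate 2 or 4 or WT replicate 3 or 4 of 2 months, or rTg4510 replicate 2 or 4 or WT replicate 2 of 4 months (1.41 to 1.71, FDR = 0.0537 to 0.0924). The Galns gain was lost without rTg4510 replicate 2 of 2 months or replicate 1 of either genotype at 4 months (0.70 to 0.75, FDR = 0.0501 to 0.0625). Tpp1 was lost without WT replicate 2 or 4 of 4 months (0.34 to 0.35, FDR = 0.0551 to 0.0709), and Dnase2a without WT replicate 2 of 4 months (0.50, FDR = 0.0524). Psap was lost without rTg4510 replicate 2 or 4 or WT replicate 4 of 4 months (0.23 to 0.27, FDR = 0.0511 to 0.0787). The Psap gain was also lost with moderated variances (0.27, FDR = 0.0749) and after quantile normalization (0.16, FDR = 0.211), and the Tpp1 gain after quantile normalization (0.28, FDR = 0.0994).

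**Figure D4:**
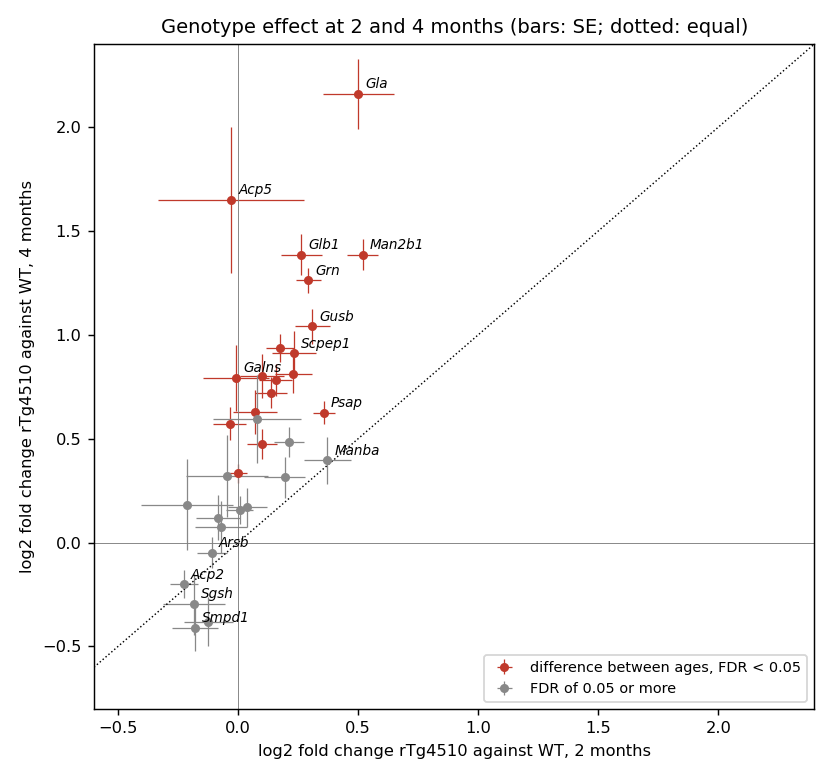
Log2 fold change of rTg4510 against WT at 4 months (y axis) against that at 2 months (x axis) for the 33 genes, with SE bars on both axes and a dotted line of equal values. The 18 red points, whose difference between ages had an FDR under 0.05, all lie above the line, with Gla and Acp5 farthest from it, and Acp2 and Manba lie near the line.

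After 4 months no further change passed. Between 4 and 6 months 0 of the 33 genes passed in either direction (0.043% of all genes grew and 0.129% declined), and between 6 and 8 months 0 passed (0% of all genes in either direction). Moderated variances also gave 0 and 0. At an unadjusted p under 0.05 there was 1 gene between 4 and 6 months, Grn, named here after its value was seen, and 0 between 6 and 8 months, against 8.15% and 4.52% of all genes. The difference of Grn changed by -0.25 between 4 and 6 months (95% confidence interval -0.42 to -0.08), and that of Gla by -0.09 (-0.56 to 0.38). Between 6 and 8 months the difference of Glb1 changed by -0.20 (-0.47 to 0.07) and that of Man2b1 by -0.08 (-0.29 to 0.12). These intervals leave room for moderate changes in either direction in most genes.

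Age was also compared within each genotype, at 8 against 2 months. In WT 1 of the 33 genes rose (0.818% of all genes) and 1 fell (3.39% of all genes). In rTg4510 22 rose (10.6% of all genes) and 1 fell (11% of all genes). The WT changes were Ppt1, at 0.27 (SE 0.0683, FDR = 0.0303), and Arsb, at -0.32 (SE 0.069, FDR = 0.0118). In rTg4510 the largest increases were those of Gla (1.86 (SE 0.158, FDR = 2.88e-08)), Acp5 (1.46 (SE 0.329, FDR = 0.0025)) and Galc (1.14 (SE 0.0996, FDR = 4.18e-08)), and Arsb fell (-0.59 (SE 0.069, FDR = 2e-06)). Over the 33 genes the median change with age was -0.04 in WT and 0.39 in rTg4510, beside -0.04 and -0.03 over all genes.

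The WT calls were lost without WT replicate 1 or 2 of 8 months in Arsb (-0.31 to -0.28, FDR = 0.0531 to 0.0778), and without WT replicate 1 or 2 of 2 months or 1 or 3 of 8 months in Ppt1 (0.22 to 0.27, FDR = 0.0633 to 0.0952). Without both replicates 1 of 8 months they were -0.28 in Arsb (FDR = 0.0824) and 0.27 in Ppt1 (FDR = 0.105), and in rTg4510 they were 0.32 in Idua (FDR = 0.133) and 0.50 in Galns (FDR = 0.0592), which ended those calls too. After quantile normalization the change in WT was -0.22 in Arsb, which no longer passed (FDR = 0.0868), and 0.18 in Psap, which passed (FDR = 0.0436). Hexa passed as lower in older WT without WT replicate 1 of 2 months (-0.21, FDR = 0.0386). In rTg4510, Idua was lost in 19 of 28 fits without 1 library (0.26 to 0.36, FDR = 0.0515 to 0.147). Manba was lost without rTg4510 replicate 1 or 2 of 2 months or 2 or 3 of 8 months (0.27 to 0.35, FDR = 0.0602 to 0.127). Galns was lost without rTg4510 replicate 2, 3 or 4 of 2 months or any rTg4510 replicate of 8 months (0.41 to 0.50, FDR = 0.0511 to 0.0761), and Tpp1 without rTg4510 replicate 3 of 8 months (0.18, FDR = 0.089). Neu1 passed as higher without replicate 1 of either genotype at 2 months (0.23 to 0.28, FDR = 0.0329 to 0.0411), and Smpd1 as lower without rTg4510 replicate 1 of 6 months or 3 of 8 months (-0.34 to -0.27, FDR = 0.0328 to 0.0428).

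**Figure D5:**
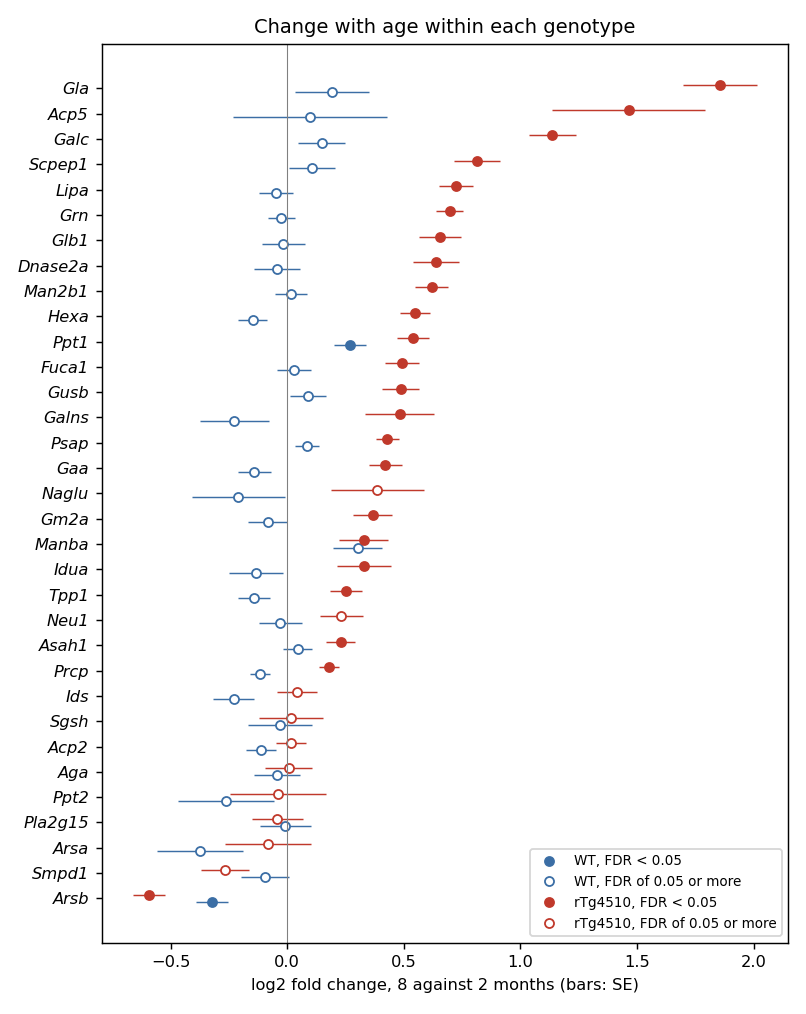
Change from 2 to 8 months (log2, x axis) within WT (blue) and rTg4510 (red) for each of the 33 genes, with SE bars, filled where the FDR was under 0.05. The red points of 22 genes lie filled to the right of 0, led by Gla at 1.86 and Acp5 at 1.46, while the blue points cluster near 0 with Ppt1 and Arsb filled.

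Genes of the same pathway outside the 33 were counted from 2 lists. The first held 18 genes of lysosomal hydrolases and related proteins, Creg1 and cathepsin A among them. Of these, 4, 9, 13 and 11 were higher at 2, 4, 6 and 8 months. The share of all genes that were higher was 4.76%, 14.1%, 19.1% and 16%. At these ages 0, 2, 2 and 1 were lower, against 1.27%, 9.1%, 14.9% and 9.78% of all genes. Dpp7, a dipeptidyl peptidase, was higher at all 4 ages, with log2 fold changes of 0.59, 1.501, 1.56 and 1.43. Ctsa, cathepsin A, which protects Glb1 and Neu1 in a complex, had 0.18, 0.84, 0.94 and 0.83 and passed at all 4 ages. Creg1 had 0.29, 1.096, 1.02 and 0.95 and also passed at all 4 ages. Smpdl3a, a relative of acid sphingomyelinase, rose at 4, 6 and 8 months (-0.02, 0.91, 1.08 and 1.05 over the 4 ages), while the related Smpdl3b fell at those ages (-0.42, -0.53, -0.63 and -0.78). Hyal1, a hyaluronidase, was lower at 6 months (-1.26, SE 0.356, FDR = 0.00889), and Plbd1 was lower at 4 months (-0.76). The mean signals of Hyal1 (4.35), Smpdl3b (4.47) and Dpp7 (5.48) lay under the library medians of 5.63.

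Of 15 genes for the sorting and activation of hydrolases or for related steps, 1, 6, 6 and 6 were higher at 2, 4, 6 and 8 months. The share of all genes that were higher was 4.76%, 14.1%, 19.1% and 16%. At these ages 0, 1, 2 and 1 were lower, against 1.27%, 9.1%, 14.9% and 9.78% of all genes. The share of lower genes was under that of all genes at each age, and the share of higher genes at 2 months was near it. Gnptab, which encodes the enzyme that starts the mannose 6-phosphate mark, was higher at all 4 ages (0.50, 1.07, 1.22 and 1.23). Its partner subunit Gnptg was higher from 4 months on (0.05, 0.40, 0.39 and 0.64). Both mannose 6-phosphate receptors were higher at 4, 6 and 8 months. Over the 4 ages Igf2r had 0.06, 1.30, 1.74 and 1.58 and M6pr 0.03, 0.39, 0.44 and 0.37. Igf2r had a low mean signal of 3.47, under the library medians of 5.63, with SEs of 0.150 to 0.174 per difference. The alternative sorting receptor Sort1 was lower at 4, 6 and 8 months (-0.09, -0.24, -0.41 and -0.37). Scarb2, the receptor of β-glucocerebrosidase, was lower at 6 months (-0.16). Sumf1, which activates the sulfatases, and its relative Sumf2 passed at no age, with log2 fold changes of -0.03, 0.02, -0.07 and 0.09 and -0.11, -0.21, 0.02 and 0.05.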

How the data were processed

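RNA of CD11b-captured forebrain microglia had been sequenced as 32 libraries, and genotype, age and replicate were taken from the labels. The deposited values are log2 signals. To make them, the authors added up the exon reads of each library's runs, dropped exons with few counts in most samples, reduced a gene's exons to 1 signal by a robust linear model, and normalized to the median. The submitters' processing notes name the build GRCm38, and the aligner is not given in the sources used here. The kit was Ovation RNA-Seq System V2, and whether counting used strand is not stated, so that genes sharing exonic bases with others are reported as uncertain.

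From the 28 libraries kept by the authors, a linear model with 8 group means was fitted to each gene with limma 3.58.1 (R 4.3.3; tables read by data.table, version 1.17.8). Variances were unmoderated, with 20 residual degrees of freedom. The study's methods give the same factorial design and thresholds (FDR under 0.05, change above 1.5 fold). FDR values were Benjamini-Hochberg adjusted over all 18588 genes within a contrast, and no gene was filtered out. Fits were tested on simulated data. No counts were given, so no counting interval was computed, and 3 or 4 libraries per group limit the precision. The study calls the libraries of a group biological replicates from pooled forebrains without saying that each was a separate pool, so a p-value measures the spread between these libraries, which may be technical.

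Entrez numbers were named from RefSeq GRCm38.p6 (17828 matched, 95.9%), exon overlaps came from GENCODE M21 of the same build, and sequences were read with Python 3.11.15 (numpy 2.4.6, pandas 2.3.3, matplotlib 3.10.9). The members, gene lists and marker lists were chosen with earlier results of these data known. Values in every library are given for the 3 members with the largest rise and the 3 with the largest fall among those passing at an age, for members whose difference changed between 2 and 4 months, and for Grn and Psap.

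Both genotypes carry the same replicate numbers. Across genes, how far a library lay from its group mean correlated between genotypes at the same number (r from 0.131 to 0.153 at 6 months, and from 0.15 to 0.291 at 8 months), so the numbers were taken to pair libraries there, from the values and not from the labels. They were not taken to pair libraries at 2 and 4 months, where the r of same-numbered and of other pairs overlapped. The main counts at all ages come from the fit without a block, and the calls that the block ended are given. Alternatives were a replicate block, all 32 libraries, moderated variances, quantile normalization, genes above the 25th percentile of mean signal, fits of only the groups compared, each library left out in turn and, chosen after seeing the data, 8 months without both replicates 1.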

Additional observations from a re-analysis of the deposited data

Results flagged for a closer look

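In 8 of 132 groups of 4 libraries, 1 library stood apart from the other 3 by a gap past Dixon's 95% critical value, and chance flags about 1 in 20 groups. Above the others of its group stood Hexa in rTg4510 replicate 3 of 2 months (9.11, the next at 8.95), Manba in WT replicate 4 of 2 months (6.10, next 5.83) and Aga in rTg4510 replicate 2 of 6 months (6.55, next 6.23). Below the others stood Lipa in WT replicate 2 of 6 months (7.38, next 7.53), Pla2g15 in WT replicate 1 of 2 months (7.91, next 8.28) and Acp5 in WT replicate 4 of 6 months (3.20, next 3.92). Psap in WT replicate 1 of 2 months (8.99, next 9.21) and Grn in WT replicate 2 of 6 months (10.99, next 11.09) were also low.

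The difference between genotypes was not the same at 2 and 4 months in 18 genes, by the interaction of genotype and age (limma, FDR under 0.05). The 4-month log2 fold change exceeded that of 2 months by 1.68 in Acp5, 1.66 in Gla, 1.12 in Glb1, 0.97 in Grn, 0.87 in Man2b1 and 0.80 in Galns. It exceeded it by 0.76 in Hexa, 0.73 in Gusb, 0.70 in Galc, 0.68 in Scpep1, 0.63 in Fuca1 and 0.61 in Lipa. In Gaa and Gm2a the excess was 0.58, in Dnase2a 0.56, in Tpp1 0.37, in Prcp 0.34 and in Psap 0.27.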

How the results depend on the processing

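The shares of all genes that passed were computed for the main fit only, so the counts of the alternatives stand without them. No log2 fold change that had passed changed sign under any alternative. Calls of higher expression at 4, 6 and 8 months kept within 1.5 times their number everywhere, and of the calls made with 28 libraries 19 of 22 at 4 months, 23 of 23 at 6 months and 19 of 25 at 8 months passed in all 28 fits without 1 library, against 4 of 6 at 2 months. Of the lower calls, Arsb at 6 and 8 months did so (1 of 3 and 1 of 2), and none at 2 or 4 months. With each library left out, 4 to 7 of the 33 genes were higher at 2 months, 19 to 22 at 4, 23 to 24 at 6 and 22 to 25 at 8 months, and 0 to 1, 0 to 3, 1 to 3 and 1 to 2 lower. Higher DEGs at 2 months numbered 0 to 1. The interaction of 2 and 4 months gave 15 to 18 genes, ageing in WT 0 to 1 higher and 0 to 2 lower, and ageing in rTg4510 18 to 22 higher and 1 to 2 lower.

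With all 32 libraries, 1 gene was higher and 0 lower at 2 months, 0 were lower at 6 and 0 at 8 months, 7 passed the interaction, ageing in WT gave 0 higher and 0 lower, and ageing in rTg4510 gave 14 higher and 0 lower. When only the groups compared entered the fit, 2 were higher and 0 lower at 2 months, 0 lower at 4 and 0 at 8 months, and ageing in WT gave 0 and 0. Moderated variances gave 0 lower at 2 months and 0 higher in ageing WT. Quantile normalization gave 5 higher and 2 lower at 2 months in place of 6 and 1, 1 lower DEG at 6 and 1 at 8 months, and in ageing WT 2 higher and 0 lower. Without both replicates 1 of 8 months, 1 was lower at 8 months, and ageing in WT gave 0 and 0.

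The replicate block left 0 lower at 2 months and 1 lower at 4 months of the 33 genes, and 17 in the interaction. At 6 and 8 months, where the numbers were taken to pair libraries, it ended the calls of Smpd1, Ids and Asah1 given above and no other. At 2 and 4 months same-numbered libraries correlated with r of 0.0649 to 0.167 and -0.0999 to 0.124, and other pairs with -0.194 to 0.0816 and -0.0709 to 0.154, so that the numbers were not taken to pair them. There the block ended the calls of Acp2 and Manba at 2 months, of Acp2, Naglu, Neu1 and Pla2g15 at 4 months and of Psap in the interaction, and Ppt1 passed at 2 months.

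Among the 18 further hydrolases and related genes, at 2 months 0 were higher with all 32 libraries (0 DEGs), 2 with moderated variances and 1 after quantile normalization. At 4 months 1 was lower after quantile normalization, with genes above the 25th percentile and with the block, and 3 were lower DEGs with all 32 libraries. At 6 months the percentile filter gave 0 lower and 0 lower DEGs, and quantile normalization 1 lower DEG. At 8 months the filter and the fit without both replicates 1 each gave 0 lower and 0 lower DEGs, and quantile normalization 3 higher DEGs. Among the 15 sorting and activation genes, 2 were higher at 2 months with the block, 1 lower after quantile normalization, and at 4 months 3 were higher with all 32 libraries, 0 lower with moderated variances and 2 lower after quantile normalization. At 6 months 1 was lower with all 32 libraries and 1 with moderated variances, and at 8 months 2 after quantile normalization. The filter left 2, 2 and 3 higher DEGs at 4, 6 and 8 months, since it removes genes of low signal. Elsewhere the cause was not tested.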
